A study of Mus musculus with 12 samples.

Results

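The comparison described here set the mesenteric lymph nodes against the spleen of mice treated with ampicillin, with 3 samples of each organ, 6 of the 12 samples of the series. The samples were taken by their labels, and the genes were all those of the panel, housekeeping genes apart, whose mean over the 12 samples reached 20 scaled counts, 445 of 547. All 12 mice carried the strain label C57BL6 Exon 16 KO Hemophilia A, a knockout that leaves the mice with hemophilia A, the bleeding disorder of missing clotting factor VIII. The treated mice were given ampicillin, a broad-spectrum penicillin antibiotic, by gavage when 3 weeks old, the control mice were untreated, and organs were dissected at 6 weeks of age. Each sample came from a mouse of its own. The ampicillin spleens came from mice 1 to 3 and the ampicillin lymph nodes from mice 4 to 6, so neither organ had a partner from the same animal. A group given gavage without the antibiotic was not analysed here.

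The spleen filters the blood. Its red pulp holds macrophages that remove old red cells, together with platelets and neutrophils, and in mice it can also form red cells, while its white pulp holds B cell follicles with a marginal zone and smaller T cell zones. The mesenteric lymph nodes drain the gut. Naive T cells enter them from the blood guided by the chemokine receptor CCR7, dendritic cells arrive with the lymph, and macrophages line their sinuses.

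RNA was counted on a NanoString nCounter with the Mouse Immunology panel. A barcoded probe pair binds each transcript, and the barcodes are counted without amplification. The total count lay between 402541 and 665143 in the ampicillin spleens and between 396950 and 547605 in the ampicillin nodes. Each sample was scaled by the geometric mean of 14 housekeeping genes, and a level is given below as a scaled count in replicates 1, 2 and 3 of an organ. A difference is a log2 difference, nodes minus spleen, with an approximate standard error after the ± sign. A gene was called where the adjusted p of edgeR's quasi-likelihood test was under 0.05. The standard error is the absolute difference divided by the square root of that test's F statistic. Where an organ's mean lay below 20, the fold is the other organ's mean divided by 20 and is written as a lower bound. The panel counts RNA of whole organs, so fewer cells of a type and less RNA per cell cannot be told apart. A level is compared between samples only, since probes of different genes bind with different efficiency.

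Ampicillin spleen 1 stood apart from the other ampicillin spleens. A chi-square per degree of freedom, which counting noise alone would put near 1, was 43.0 for spleen 1 against spleen 2, 66.1 against spleen 3 and 11.3 for spleen 2 against spleen 3. For pairs of ampicillin nodes it was 3.59 to 5.85. The median SD of a gene's log2 level was 0.189 among ampicillin spleens and 0.143 among ampicillin nodes, against 0.112 and 0.113 in the same organs of control mice. Results whose call rests on spleen 1, or on spleens 2 and 3, are given below with and without them, beside the gene or together after the gene groups.

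The organs differed at most genes of the panel. Of 445 genes, 281 were called (63.1%), 149 higher in the nodes (33.5%) and 132 higher in the spleen (29.7%). The 3 samples of one organ lay wholly above the 3 of the other for 281 genes as well (63.1%), the nodes above for 146 (32.8%) and the spleen above for 135 (30.3%), and 271 genes met both conditions. The median log2 difference over all tested genes was 0.03. A called difference reached 2-fold at 60 genes in favour of the nodes (13.5%) and at 49 in favour of the spleen (11.0%), while 59 called genes differed by less than 0.5 on the log2 scale. Genes of T cells, of T cell entry and of monocyte-attracting chemokines were higher in the nodes, and genes of platelets, neutrophils, red cell precursors, red pulp macrophages and B cells were higher in the spleen.

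**Figure D1:**
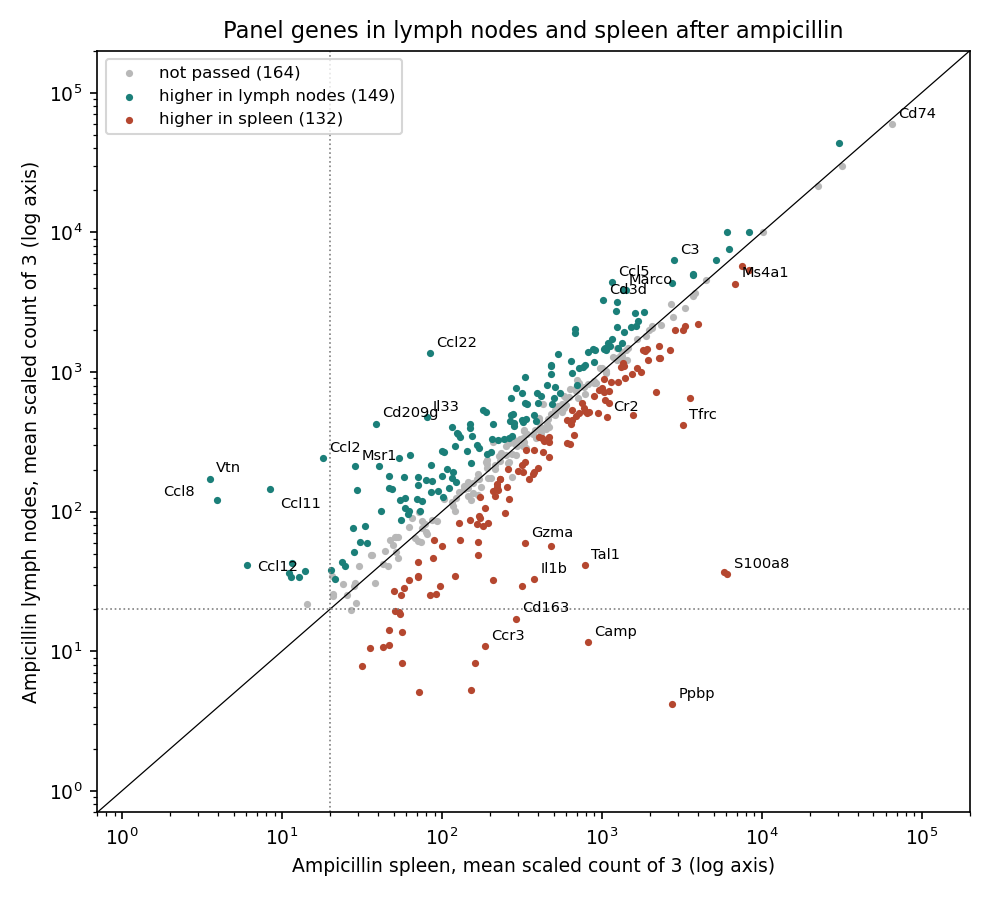
Mean scaled count of each of 445 genes in the 3 ampicillin spleens (horizontal, log axis) and the 3 ampicillin lymph nodes (vertical, log axis), with the diagonal of equal level and dotted lines at the minimum of 20. Colours mark the 149 genes called higher in the nodes, the 132 called higher in the spleen and the 164 not called. The farthest points lie on the spleen side, with Ppbp, S100a8 and S100a9, and on the node side with Vtn, Ccl8, Ccl11 and Ccl22.

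The labels of the organs were checked against marker genes, in lists chosen with earlier results of these data known. Of 22 T cell genes, 21 were called higher in the nodes. Of 14 B cell genes 11, and of 19 genes of red pulp macrophages and monocytes 14, were called higher in the spleen. In these 2 lists 1 B cell gene and 2 macrophage genes, Marco and Msr1, were called higher in the nodes. Cd163, counted among the 14, passed the minimum through the spleen alone, so its direction is no check of the labels. All 3 lists were detected in both organs, with summed levels of 30696, 31884 and 29378 scaled counts for T cell genes in the nodes against 18871, 14116 and 12930.5 in the spleens. Genes of gut epithelium were few on the panel, and 2 of 4, Itln1 and Ceacam1, reached the minimum, both higher in the spleen. Itln1 reached it through the spleen alone, so its direction is no check of the labels.

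Platelet and neutrophil genes held the widest gaps in favour of the spleen. Ppbp, the platelet chemokine released from alpha granules, measured 1911, 2719 and 3613 scaled counts in the spleens and 7.83, 2.04 and 2.60 in the nodes. The groups lay far apart, and the spleen was at least 137-fold higher (adjusted p = 3.4e-09). Gp1bb, a subunit of the platelet receptor for von Willebrand factor, measured 114, 146 and 193 in the spleens and 7.83, 4.08 and 3.90 in the nodes, at least 7.56-fold (adjusted p = 1.7e-07). Both transcripts stayed below 20 scaled counts in every node and were high in every spleen. Itga2b, the platelet integrin alpha IIb, was 2.01-fold higher in the spleen (adjusted p = 0.0010), Cd36, a scavenger receptor shared with macrophages and fat cells, 3.04-fold (2.3e-07), and Cd9, a tetraspanin of platelets and B cells, by -0.59 on the log2 scale (4.4e-05). All 5 tested genes of the platelet and megakaryocyte list were thus called higher in the spleen, with a median log2 difference of -1.60. Ppbp and Gp1bb passed the minimum through the spleen alone, so the count describes the tested genes only. The summed level of the list was 5353, 6808 and 7479.9 in the spleens and 1656, 1725 and 1547 in the nodes. With spleen 1 as the lone ampicillin spleen, which is then assumed to vary like the other groups, 4 of the 5 were called, and the log2 difference of Itga2b was -0.57 (adjusted p = 0.056).

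S100a8 and S100a9 encode the calcium-binding proteins that form calprotectin. S100a8 measured 2320.4, 6064 and 9941 scaled counts in the spleens and 48.3, 20.4 and 37.7 in the nodes, a log2 difference of -7.46 ± 0.56 (adjusted p = 1.7e-07). S100a9 measured 2421, 5726 and 9288 and 41.8, 32.6 and 36.4, a log2 difference of -7.30 ± 0.50 (7.2e-08). The lowest spleen, spleen 1, still lay far above the highest node, and the spleens varied among themselves over a wider range than the nodes. Against spleen 1 alone the 2 log2 differences were -6.07 and -6.04. Camp, the antimicrobial peptide cathelicidin of secondary granules, measured 222, 793 and 1443 in the spleens and 18.3, 6.11 and 10.4 in the nodes, at least 41.0-fold higher in the spleen (adjusted p = 8.9e-06). Ctsg, the primary granule protease cathepsin G, stood at 26.5, 85.3 and 105 and 10.4, 1.02 and 3.90, at least 3.61-fold (2.2e-04). Spleen 1 was the lowest spleen at all 4 genes. The myeloid transcription factor gene Cebpb was 1.66-fold higher in the spleen and Itgam, the alpha chain of the integrin Mac-1, 1.92-fold. Of 10 tested neutrophil genes 8 were called higher in the spleen and 1, Il1r2, in the nodes, with a median log2 difference of -1.49. Camp and Ctsg passed the minimum through the spleen alone and 3 genes lay below it, so the count and median describe the tested genes only. The levels summed over the list's 13 genes on the panel were 6179.9, 13573 and 21620.2 scaled counts in the spleens and 621, 597 and 648 in the nodes. The part of platelets, neutrophils and other blood cells in the differences at genes outside these lists was not tested.

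**Figure D2:**
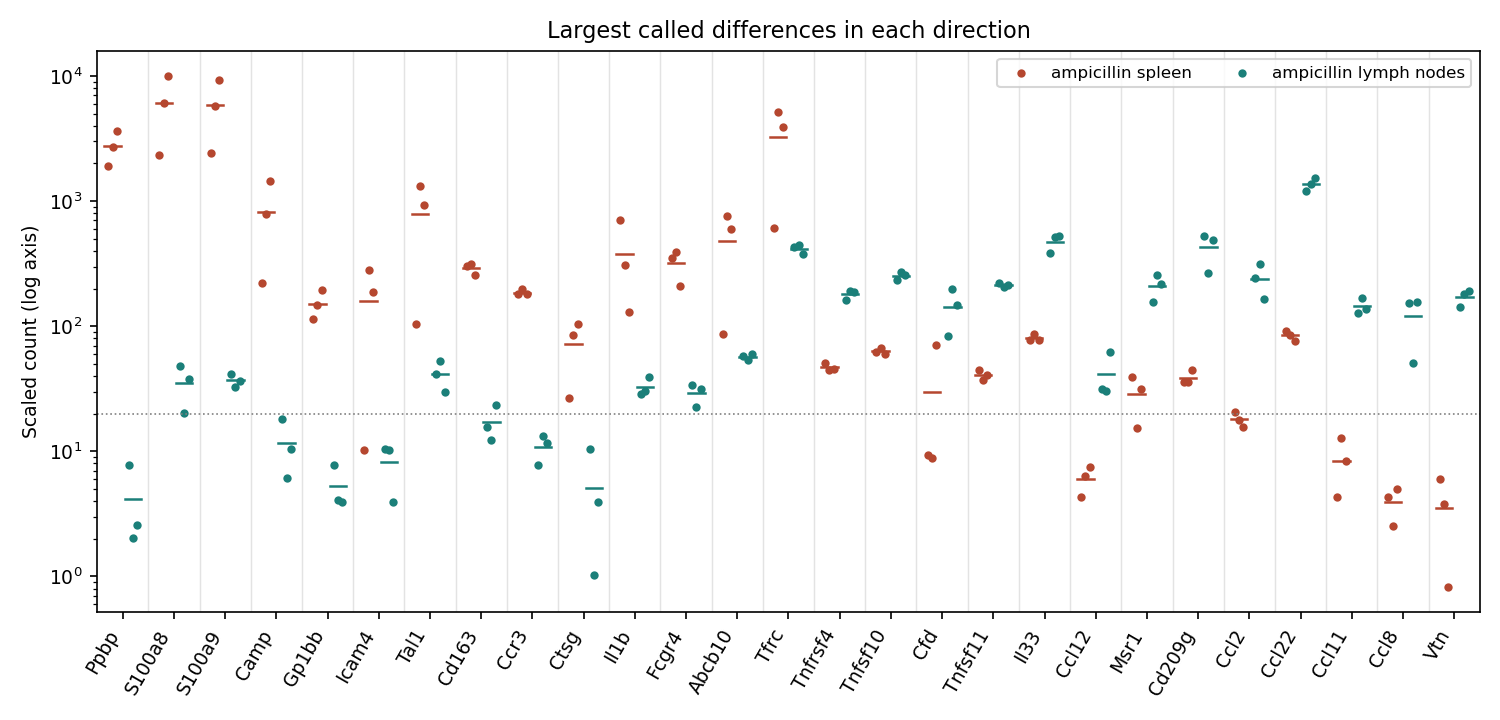
Scaled count (log axis) of the 14 genes with the largest called difference toward the spleen (left) and 13 of the 14 toward the lymph nodes (right), 1 point per sample and a bar at the mean of 3, with a dotted line at the minimum of 20. The spleens spread widely at Tfrc, Tal1, Abcb10 and Icam4, where spleen 1 lies close to the nodes, and the nodes lie close together at Ccl22, Tnfsf11 and Tnfsf10.

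Genes of red cell precursors were higher in the spleen, but the size of the difference rested on spleens 2 and 3. Tfrc, the transferrin receptor that takes up iron, measured 609, 5132 and 3941 scaled counts in the spleens and 428, 445 and 376 in the nodes, a log2 difference of -2.95 ± 0.54 (adjusted p = 3.3e-04). Spleen 1 lay just above the nodes, whereas spleens 2 and 3 lay far above. Abcb10, a mitochondrial transporter of erythroid cells, followed the same order, with 87.3, 754 and 604 in the spleens and 57.4, 54.0 and 59.8 in the nodes (log2 difference -3.07 ± 0.58, adjusted p = 4.0e-04). Tal1, which drives gene expression in red cell precursors, measured 104, 1323 and 937 and 41.8, 53.0 and 29.9 (log2 difference -4.21 ± 0.73, adjusted p = 2.2e-04). Cd24a, a surface glycoprotein of erythroid precursors and developing B cells, measured 1016, 5479 and 4196 and 660.3, 637 and 649 (log2 difference -2.46 ± 0.42, adjusted p = 2.0e-04). At these 3 genes too, spleen 1 was the lowest spleen and lay above every node. Icam4, a red cell adhesion molecule, measured 10.3, 281 and 189 in the spleens and 10.4, 10.2 and 3.90 in the nodes, so spleen 1 overlapped the nodes, and the mean of the spleens was at least 8.02-fold higher (adjusted p = 0.0011). Kit, the stem cell factor receptor of progenitors and mast cells, did not pass, with 47.9, 38.2 and 43.2 and 36.5, 40.8 and 48.1 (log2 difference -0.05 ± 0.20, adjusted p = 0.84). Of the 6 genes 5 were therefore called higher in the spleen, with a median log2 difference of -2.98. Icam4 passed the minimum through the spleen alone.

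Without spleen 1 the same 5 genes were called, with log2 differences of -3.44 for Tfrc, -3.57 for Abcb10, -4.73 for Tal1 and -2.90 for Cd24a. With spleen 1 as the lone spleen only Tal1 (-1.30, adjusted p = 0.024) and Cd24a (-0.65, adjusted p = 0.0030) were called. Tfrc was then at -0.54 (adjusted p = 0.096) and Abcb10 at -0.62 (0.12), and Icam4 was below the minimum and not tested. The summed level of the 6 genes was 1874, 13008 and 9909.6 scaled counts in the ampicillin spleens, 2643, 3325 and 2009 in the control spleens and 1234, 1239.9 and 1166 in the ampicillin nodes. The part of red cell precursors in the differences at other genes was not tested.

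Promoters of erythroid genes often hold the letters read by GATA factors, so the start regions of Tal1, Icam4, Abcb10, Tfrc and Kit were searched for them, and those of Icam4 and Tal1, where they were found, are shown. The sequences are from RefSeq, build GRCm38.p6, 250 bases before to 50 bases after the annotated gene start, with matches to AGATAA on either strand in capitals. Icam4 lies at chr9:21029182-21029481, plus strand, and Tal1 at chr4:115056176-115056475, plus strand, the first of its 2 annotated starts.
Icam4: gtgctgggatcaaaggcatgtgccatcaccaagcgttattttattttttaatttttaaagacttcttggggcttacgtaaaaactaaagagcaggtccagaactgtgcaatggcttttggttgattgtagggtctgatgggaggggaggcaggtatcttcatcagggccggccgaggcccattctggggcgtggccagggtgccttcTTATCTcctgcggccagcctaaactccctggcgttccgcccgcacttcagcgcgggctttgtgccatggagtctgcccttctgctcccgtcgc
Tal1: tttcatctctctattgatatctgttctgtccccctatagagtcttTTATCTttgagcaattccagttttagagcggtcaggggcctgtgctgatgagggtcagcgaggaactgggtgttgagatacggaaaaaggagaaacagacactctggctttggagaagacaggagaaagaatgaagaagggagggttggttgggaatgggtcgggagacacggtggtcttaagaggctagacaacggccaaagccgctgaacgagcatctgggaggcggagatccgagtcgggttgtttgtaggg
Both matches are read on the opposite strand, as TTATCT. The motif was found in 11.2% of 32851 promoters of the same length. It was in neither start region of Tfrc or Kit, not at the other start of Tal1, and not in the regions of Abcb10, Ppbp or Gp1bb. A match describes letters in the window and was not set against binding data.

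Macrophage genes split between the organs. Cd163, the scavenger receptor for hemoglobin bound to haptoglobin, measured 303, 315 and 256 scaled counts in the spleens and 15.7, 12.2 and 23.4 in the nodes, at least 14.6-fold higher in the spleen (adjusted p = 3.0e-09). Fcgr4, an activating IgG receptor, measured 351, 389.7 and 211 and 33.9, 22.4 and 31.2 (log2 difference -3.45 ± 0.28, adjusted p = 3.4e-07). Both genes were high in each spleen and low in each node. Vcam1, an adhesion molecule of red pulp macrophages and stroma, was 3.17-fold higher in the spleen (3.5e-08), and Csf1r, the receptor for macrophage colony-stimulating factor, 1.84-fold (3.0e-05). Marco and Msr1, class A scavenger receptors found on marginal zone and lymph node sinus macrophages, went the other way. Msr1 measured 39.4, 15.3 and 31.6 in the spleens and 157, 259 and 216 in the nodes (log2 difference 2.82 ± 0.26, adjusted p = 1.1e-06). Marco measured 1586, 1329.5 and 1133 and 3398, 4469 and 3766 (1.52 ± 0.17, adjusted p = 5.5e-06). The nodes lay above the spleens at both. Cd209g, a C-type lectin of the SIGN family, measured 35.9, 35.7 and 44.8 in the spleens and 525, 267 and 490.3 in the nodes (log2 difference 3.44 ± 0.38, adjusted p = 6.1e-06), with node 2 the lowest node and still far above every spleen. Over the list, 14 of 19 tested genes were called higher in the spleen and 2, Marco and Msr1, in the nodes, with a median log2 difference of -0.82. Cd163 passed the minimum through the spleen alone.

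Of 7 tested Fc receptor genes, 5 were higher in the spleen. They were the activating Fcgr4, Fcgr1 (-1.06) and Fcgr3 (-0.64), their signalling chain Fcer1g (-1.06) and the inhibitory Fcgr2b (-0.90), given as log2 differences, with adjusted p between 3.4e-07 and 0.0015. Fcamr, the receptor for IgA and IgM, was higher in the nodes, at 180.1, 152 and 113 scaled counts against 64.2, 20.4 and 54.8 (log2 difference 1.63 ± 0.33, adjusted p = 6.9e-04). Ccr3, the eotaxin receptor of eosinophils, measured 179.7, 199 and 179 in the spleens and 7.83, 13.2 and 11.7 in the nodes, at least 9.30-fold higher in the spleen (adjusted p = 2.7e-08). Its ligand gene Ccl11 differed the other way, as described with the chemokines.

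Among genes of natural killer and cytotoxic cells, Gzma, the protease granzyme A, measured 262, 379.5 and 346 scaled counts in the spleens and 24.8, 65.2 and 88.4 in the nodes (log2 difference -2.46 ± 0.33, adjusted p = 2.7e-05). Cd244, a SLAM family receptor of natural killer cells, measured 62.5, 50.9 and 55.6 and 9.13, 9.17 and 6.50, at least 2.82-fold (adjusted p = 2.4e-06). Klrc1, the receptor NKG2A, was at least 2.81-fold higher in the spleen, and Klra8, a Ly49 receptor whose probe may bind close relatives, at least 2.32-fold. Il2rb, the interleukin 2 receptor chain shared with T cells, was 1.51-fold higher in the nodes (adjusted p = 3.7e-04). Of 23 genes on the panel 14 were tested, 7 were called higher in the spleen and 2, Il2rb and Xcl1, in the nodes, with a median log2 difference of -0.73. The remaining 9 genes lay below the minimum. At least Cd244, Klrc1 and Klra8 passed the minimum through the spleen alone, so these counts and the median describe the tested genes only.

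T cell genes were higher in the nodes almost throughout. Cd3d, a chain of the CD3 complex that signals for the T cell receptor, measured 1398, 851 and 786 scaled counts in the spleens and 3547, 3359.9 and 2968 in the nodes (log2 difference 1.70 ± 0.18, adjusted p = 4.0e-06). Cd3e measured 924, 587 and 519 and 1959, 1927 and 1845 (1.49 ± 0.17, adjusted p = 7.6e-06). Spleen 1 was the highest spleen at both, and every node lay above it. Thy1, a surface marker of T cells, was 2.98-fold higher in the nodes, Cd6, an adhesion receptor of T cells, 2.83-fold, and Lck, the kinase that starts T cell receptor signalling, 2.54-fold, with adjusted p between 1.4e-06 and 1.4e-05. Tcf7, the transcription factor TCF1 of naive and memory T cells, measured 1852, 1224 and 1161 and 4027, 3906 and 3694 (1.46 ± 0.15, adjusted p = 4.0e-06). Ets1, a transcription factor of lymphocytes in general, differed by 0.30 ± 0.09 (adjusted p = 0.012), a call lost without spleen 3. Of 22 genes 21 were called higher in the nodes and 1, Cd7, lower, with a median log2 difference of 1.30. Against spleen 1 alone 19 were called higher, and with 1 ampicillin sample left out at a time 20 or 21.

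Genes by which naive lymphocytes enter and live in nodes followed. Ccr7, the receptor for the T zone chemokines, measured 1502, 1187 and 982 scaled counts in the spleens and 2516, 2834 and 2853 in the nodes (log2 difference 1.16 ± 0.13, adjusted p = 5.5e-06). Its ligand gene Ccl19 measured 1905, 1521 and 1432 and 2355, 2662 and 2943 (0.71 ± 0.15, adjusted p = 0.0010), and against spleen 1 alone it was at 0.48 (0.053). The groups did not overlap at either gene. Lef1, a partner of TCF1, was 2.32-fold higher in the nodes, Cd27, a costimulatory receptor, 2.40-fold, and Il7r, the receptor for the survival cytokine interleukin 7, 1.87-fold, with adjusted p between 2.4e-06 and 4.2e-05. Of 8 tested genes 7 were called higher in the nodes and none lower, with 5 to 7 higher when 1 ampicillin sample was left out.

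Regulatory T cell genes were higher in the nodes at 9 of 11 tested genes, and 1, Entpd1, was lower, with a median log2 difference of 1.18. Tnfrsf4, the costimulatory receptor OX40, measured 50.5, 44.6 and 45.7 scaled counts in the spleens and 161, 191 and 189 in the nodes (log2 difference 1.93 ± 0.14, adjusted p = 1.4e-07). Folr4, a folate receptor relative that marks regulatory T cells, measured 138, 103 and 106 and 416, 428 and 369 (1.80 ± 0.14, adjusted p = 2.2e-07). Ctla4, the inhibitory receptor for CD80 and CD86, measured 73.6, 56.0 and 44.0 and 181, 182 and 166 (1.61 ± 0.16, adjusted p = 2.8e-06). All nodes lay above all spleens at the 3 genes. Il2ra, the high-affinity chain of the interleukin 2 receptor, was 2.71-fold higher in the nodes and Ikzf2, the transcription factor Helios, 1.81-fold. Entpd1, the ATP-degrading enzyme CD39 that B cells and macrophages also carry, was 1.95-fold higher in the spleen (adjusted p = 6.8e-06). The list shares 1 gene with the T cell list, the naive homing list 3 and the costimulation list 4.

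Among 15 tested genes of costimulation and checkpoints, 7 were higher in the nodes and 2 in the spleen. The 7 are genes of T cells, among them Cd28, the main costimulatory receptor, at 96.6, 77.4 and 62.4 scaled counts in the nodes and 45.4, 36.9 and 16.6 in the spleens (log2 difference 1.27 ± 0.30, adjusted p = 0.0020), and Cd40lg, the ligand by which T cells help B cells, 2.51-fold higher in the nodes. The genes higher in the spleen were Cd80 and Cd86, ligands on antigen-presenting cells, and Cd86 was 1.52-fold higher there (adjusted p = 5.3e-04).

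B cell genes were higher in the spleen by modest amounts. Ms4a1, the B cell surface protein CD20, measured 7716, 6455 and 6362 scaled counts in the spleens and 4388, 4451 and 4056 in the nodes (log2 difference -0.67 ± 0.10, adjusted p = 7.0e-05). Cr2, complement receptor CD21 of marginal zone and follicular B cells and follicular dendritic cells, measured 1272, 960.2 and 1006 and 395, 512 and 515 (-1.19 ± 0.13, adjusted p = 5.5e-06). The spleens lay above the nodes at both. Pax5, the transcription factor of B cell identity, was 1.60-fold higher in the spleen and Cd79b, a signalling chain of the B cell receptor, 1.31-fold, with adjusted p of 6.9e-04 and 0.0017. Of 14 genes 11 were called higher in the spleen and 1 in the nodes, with a median log2 difference of -0.62.

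The follicle genes went with the B cells. Cxcl13, the B cell chemokine of follicles, measured 4408, 3618 and 3948 scaled counts in the spleens and 2149, 2193 and 2282 in the nodes (log2 difference -0.85 ± 0.13, adjusted p = 6.2e-05), and its receptor Cxcr5 measured 965, 731 and 789.7 and 472, 518 and 563 (-0.68 ± 0.10, adjusted p = 7.0e-05). Prdm1, the plasma cell regulator Blimp1, was 1.85-fold higher in the spleen, Irf4, needed for plasma cells, 1.26-fold, and Xbp1, a driver of antibody secretion, 1.24-fold, with adjusted p between 0.0018 and 0.010, and Irf4 lost its call without node 2. Of 7 tested genes of plasma cells and germinal centres 5 were called higher in the spleen and 1 in the nodes.

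Chemokine ligands held many of the widest gaps in favour of the nodes. Ccl22, a dendritic cell chemokine that attracts cells with CCR4, measured 91.6, 85.3 and 76.4 scaled counts in the spleens and 1194, 1362 and 1541 in the nodes, 16.2-fold higher in the nodes (log2 difference 4.02 ± 0.13, adjusted p = 5.5e-11). Its receptor gene Ccr4 measured 15.4, 19.1 and 7.47 and 40.5, 37.7 and 33.8, at least 1.87-fold higher in the nodes (adjusted p = 0.0011). Each organ's samples were close together at Ccl22, and the 2 groups did not overlap at either gene.

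Ligands that attract monocytes and eosinophils lay near or below 20 scaled counts in the spleens. Ccl2, a ligand of CCR2, measured 20.5, 17.8 and 15.8 in the spleens and 241, 313 and 166 in the nodes, at least 12.0-fold higher in the nodes (adjusted p = 8.2e-08). Ccl8, another monocyte chemokine, measured 4.28, 2.55 and 4.98 and 154, 50.9 and 157, at least 6.04-fold (1.1e-05), with node 2 the lowest node. Ccl11, the eosinophil chemokine eotaxin, measured 4.28, 12.7 and 8.30 and 127, 169 and 137, at least 7.20-fold (4.6e-08). Ccl12, a mouse relative of Ccl2, measured 4.28, 6.37 and 7.47 and 31.3, 30.6 and 62.4, at least 2.07-fold (7.6e-05). At each of the 4 genes the lowest node lay above the highest spleen.

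Ccl5, a chemokine stored by memory T cells, was 3.81-fold higher in the nodes, with 1179, 1209.8 and 1072 in the spleens and 4119.6, 4468 and 4585 in the nodes (adjusted p = 2.2e-08). Cxcl12, the stromal ligand of CXCR4, measured 9268, 8035 and 7663 and 5127, 5407 and 5466, higher in the spleen (log2 difference -0.64 ± 0.13, adjusted p = 7.0e-04). The interferon-induced Cxcl9 measured 253, 167 and 204 and 262, 297 and 378 and did not pass (0.58 ± 0.25, adjusted p = 0.060). Of 27 chemokine genes 17 were tested, with 9 called higher in the nodes and 4, Ppbp, Cxcl12, Cxcl13 and Ccl6, in the spleen, and 10 lay below the minimum. Because a member passes the minimum through the organ where it is high, these counts describe the tested genes only.

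The start regions of 3 of these chemokine genes are shown, since the genes differed in the same direction, with matches to GGGA and TCC with any 3 bases between them, letters of the kind read by NF-kB, in capitals. They are 300 bases each from RefSeq, build GRCm38.p6. Ccl22 lies at chr8:94745434-94745733, Ccl8 at chr11:82114935-82115234 and Ccl12 at chr11:82101595-82101894, all on the plus strand.
Ccl22: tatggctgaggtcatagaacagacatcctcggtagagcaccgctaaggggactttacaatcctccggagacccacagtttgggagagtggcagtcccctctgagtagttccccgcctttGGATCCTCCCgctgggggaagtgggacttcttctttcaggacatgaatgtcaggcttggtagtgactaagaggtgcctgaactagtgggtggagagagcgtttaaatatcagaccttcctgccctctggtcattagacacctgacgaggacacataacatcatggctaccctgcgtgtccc
Ccl8: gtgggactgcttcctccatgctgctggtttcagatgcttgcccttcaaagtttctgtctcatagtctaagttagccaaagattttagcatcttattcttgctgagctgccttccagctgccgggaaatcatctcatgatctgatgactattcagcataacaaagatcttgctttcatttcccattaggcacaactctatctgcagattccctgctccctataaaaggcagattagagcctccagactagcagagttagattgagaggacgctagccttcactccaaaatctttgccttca
Ccl12: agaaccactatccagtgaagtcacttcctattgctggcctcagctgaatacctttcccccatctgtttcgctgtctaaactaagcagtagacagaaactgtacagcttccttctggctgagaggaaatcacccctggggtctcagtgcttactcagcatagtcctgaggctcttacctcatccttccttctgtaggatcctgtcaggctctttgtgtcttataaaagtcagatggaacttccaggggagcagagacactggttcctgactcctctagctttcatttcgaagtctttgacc
Ccl22 held 1 match, read on the opposite strand, and the regions of Ccl8 and Ccl12 held none. Over 32851 promoters of this length, 4.59% held the motif on either strand.

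Chemokine receptors were split, with 8 of 18 tested genes called higher in the nodes and 7 in the spleen. Over all tested genes the shares were 33.5% and 29.7%. Ccr4 passed the minimum through the nodes alone and Ccr3 through the spleen alone, and 3 genes lay below it, so these counts describe the tested genes only. Besides Ccr7 and Ccr4, the nodes were higher at Ccr9, the gut-homing receptor for CCL25 (2.03-fold, adjusted p = 5.5e-05), Xcr1, the receptor of cross-presenting dendritic cells (2.53-fold, 6.6e-05), and Ccrl1, an atypical scavenger of CCR7 ligands, with 62.5, 33.1 and 50.7 scaled counts in the spleens and 149, 139 and 146 in the nodes (log2 difference 1.54 ± 0.25, adjusted p = 1.2e-04). The spleens were higher at Ccrl2, which binds chemerin on the cell surface, with 65.1, 168 and 131 and 35.2, 26.5 and 41.6 (-1.81 ± 0.30, adjusted p = 1.7e-04). They were also higher at Ccbp2, an atypical receptor that scavenges inflammatory chemokines, with 60.8, 61.1 and 89.7 and 36.5, 36.7 and 28.6 (-1.06 ± 0.20, adjusted p = 4.1e-04). At both genes every spleen lay above every node.

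Dendritic cell genes leaned to the nodes, with 8 of 11 called higher there and 2 in the spleen. Besides Ccl22, Ccr7, Xcr1 and Cd209g these included Cd83, a maturation marker (1.38-fold, adjusted p = 0.0042, and 0.22 against spleen 1 alone), and Relb, an NF-kB subunit of mature dendritic cells, with 1093, 842 and 785 scaled counts in the spleens and 1315, 1420.2 and 1547 in the nodes (0.65 ± 0.11, adjusted p = 2.2e-04). Itgax, the integrin CD11c, was 1.69-fold higher in the spleen (adjusted p = 4.8e-04), as was Cd86. When spleens 2 and 3 were left out, 5 of the 11 were called higher in the nodes. Of 6 genes of plasmacytoid dendritic cells, Tcf4, their transcription factor, Lair1, an inhibitory receptor, and Tlr9, the receptor for CpG DNA, were higher in the spleen, by 1.67, 1.76 and 1.48-fold, and Ccr9 was higher in the nodes.

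No gene of class II antigen presentation passed the test. Cd74, the invariant chain, measured 74354, 63759 and 57184 scaled counts in the spleens and 54918, 59717 and 63458 in the nodes (log2 difference -0.13 ± 0.10, adjusted p = 0.25). H2-Aa, the class II alpha chain, measured 36994, 29399 and 29379 and 28255, 29412 and 32014 (-0.09 ± 0.10, adjusted p = 0.44). The groups overlapped at both, with spleen 1 the highest of the 6 samples. Of the 8 genes 0 were called by edgeR, and the median log2 difference was -0.09. With TMM scaling 4 were called higher in the spleen, with spleen 1 as the lone spleen 5, and without spleen 2 or without spleen 3 1. Class I genes were mostly higher in the nodes, 7 of 11 called higher and 1 lower. B2m, the light chain of class I, measured 33869, 30591 and 26827 and 40359, 45896 and 44451 (log2 difference 0.52 ± 0.09, adjusted p = 2.5e-04). H2-K1, a class I heavy chain, was 1.57-fold higher in the nodes, Tap1, the peptide transporter, 1.37-fold, and the immunoproteasome subunits Psmb9 and Psmb10 1.53 and 1.45-fold. H2-Q10, a secreted class I protein whose probe may bind related genes, was at least 2.72-fold higher in the spleen (adjusted p = 0.0041).

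Complement genes leaned to the nodes. C3, the central component, measured 3255, 2613 and 2589 scaled counts in the spleens and 5243, 6900.2 and 6836 in the nodes (log2 difference 1.17 ± 0.13, adjusted p = 8.5e-06). Every node was above every spleen. Clu, a chaperone that inhibits the terminal complex, was 1.65-fold higher in the nodes, and C7, a terminal component, at least 1.71-fold. The spleen was higher at C6, another terminal component, with 233, 253 and 144 and 26.1, 41.8 and 29.9 (-2.66 ± 0.25, adjusted p = 1.4e-06), and at Cfp, the stabilizing factor properdin of myeloid cells (1.84-fold). C1qb, a chain of the recognition molecule C1q, measured 2442, 2603 and 2013 and 1978, 2265 and 2282 and did not pass (adjusted p = 0.38). Of 29 genes 18 were tested, 12 called higher in the nodes and 3, C6, Cfp and Cr2, in the spleen, with a median log2 difference of 0.72. C7 passed the minimum through the nodes alone and 11 genes lay below it, so these counts describe the tested genes only.

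Cfd, factor D of the alternative pathway, is also a secreted product of fat cells, and mesenteric nodes lie in fat. It measured 9.42, 8.91 and 70.6 scaled counts in the spleens and 83.5, 199 and 148 in the nodes (log2 difference 2.20 ± 0.54, adjusted p = 0.0027). Spleen 3 lay close to the lowest node, while spleens 1 and 2 were below 10. Without spleens 2 and 3 the log2 difference was 3.93. The other adipose genes on the panel went the other way. Pparg, the fat cell regulator that red pulp and other macrophages also use, was at least 2.34-fold higher in the spleen (adjusted p = 4.6e-05), as was Cd36. Pparg passed the minimum through the spleen alone. The summed level of the 3 adipose genes was 1993, 2566 and 2184 in the spleens and 818, 982 and 813 in the nodes. Most of that sum was Cd36, which platelets and macrophages share, since Pparg averaged 46.8 in the spleens and 14.3 in the nodes. The sum is therefore no measure of fat, and the part of fat in the node samples was not tested.

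Vtn, vitronectin, an extracellular matrix protein that also inhibits the terminal complement complex, was among the clearest node genes. It measured 5.99, 3.82 and 0.83 scaled counts in the spleens and 144, 182 and 189.9 in the nodes, at least 8.60-fold higher in the nodes (adjusted p = 2.7e-08). Among stromal genes, Tnfsf11, the organizer cytokine RANKL, measured 44.5, 36.9 and 40.7 and 221, 206 and 215 (2.38 ± 0.17, adjusted p = 8.7e-08). Il33, an alarmin of fibroblastic stroma and endothelium, measured 77.9, 86.6 and 77.2 and 384, 518 and 523 (2.56 ± 0.14, adjusted p = 1.2e-08). The nodes were tightly grouped and far above the spleens at Tnfsf11. Pecam1, the endothelial molecule CD31, was 1.48-fold higher in the nodes (adjusted p = 7.3e-05) and Bst1, an ectoenzyme of stroma and B cell precursors, 1.81-fold. Of 18 stromal and endothelial genes 7 were higher in the nodes and 4, Vcam1, Cxcl12, Cxcl13 and Pdgfrb, in the spleen. These counts lie near the shares over all tested genes, 33.5% and 29.7%.

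Genes of mucosal immunity and gut homing leaned to the nodes. Il22ra2, the soluble decoy that binds interleukin 22, measured 141, 124 and 110.4 scaled counts in the spleens and 384, 317 and 390.1 in the nodes (log2 difference 1.54 ± 0.20, adjusted p = 1.9e-05). Il23r, the interleukin 23 receptor of type 3 lymphocytes, measured 17.1, 6.37 and 14.9 and 36.5, 28.5 and 36.4, at least 1.69-fold higher in the nodes (adjusted p = 0.0010). The nodes lay above the spleens at both genes. Itga4, the integrin alpha 4 of gut and marrow homing, was 1.54-fold higher in the spleen (adjusted p = 2.1e-04). Of 12 genes on the panel 7 were tested, with 4, Ccr9 included, higher in the nodes and 2, Itga4 and Ahr, in the spleen. Over all tested genes the shares were 33.5% and 29.7%. Il23r passed the minimum through the nodes alone, and 5 genes lay below it, so these counts describe the tested genes only.

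Interleukin 1 family genes went both ways. Il1b, interleukin 1 beta, measured 700.2, 307 and 130.4 scaled counts in the spleens and 28.7, 30.6 and 39.0 in the nodes (log2 difference -3.54 ± 0.50, adjusted p = 4.4e-05), and here spleen 1 was the highest spleen. Without spleen 1 the difference was -2.71. Il18 was 2.55-fold higher in the spleen (adjusted p = 9.7e-06), while Sigirr, an inhibitory receptor of the family, was 1.67-fold higher in the nodes (8.8e-04). Il1rl1, the interleukin 33 receptor that mast cells carry, measured 34.2, 94.2 and 125 and 17.0, 26.5 and 32.5 (-1.73 ± 0.44, adjusted p = 0.0033), and with spleen 1 as the lone spleen it was at -0.43 (0.45). Il1rl1 thus ran opposite to its ligand gene Il33. Of 14 genes 4, Il33, Sigirr, Il1r2 and Il18r1, were higher in the nodes and 5, Il1b, Il18, Il1rl1, Il1a and Il18rap, in the spleen. Both counts lie near the shares over all tested genes, 33.5% and 29.7%. Of 2 tested mast cell genes, Il1rl1 and Kit, only Il1rl1 was called.

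Of 16 Toll-like receptor pathway genes 7 were called higher in the spleen, where the share over all tested genes was 29.7%. Only 1, the RNA sensor gene Tlr3, was called higher in the nodes, a call lost when any 1 of the 6 ampicillin samples was left out. Cd14, the coreceptor for lipopolysaccharide, measured 203, 162 and 143 scaled counts in the spleens and 62.6, 58.1 and 61.1 in the nodes (log2 difference -1.48 ± 0.18, adjusted p = 1.5e-05). Tlr8, an RNA sensor, measured 214, 199.9 and 166 and 74.4, 101 and 74.1 (-1.21 ± 0.16, adjusted p = 3.3e-05). The organs did not overlap at either. Of 18 interferon response genes 6 were higher in the nodes and none in the spleen, and the first is close to the share called higher over all tested genes (33.5%). Socs1, the inhibitor of interferon signalling, was 2.45-fold higher in the nodes (adjusted p = 7.4e-05) and Irf1, a transcription factor of the interferon response, 1.69-fold (4.4e-05). When spleens 2 and 3 were left out, 3 of the 18 were called higher in the nodes, and without ampicillin node 3, 2 were called higher in the spleen.

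Of 12 genes of the common gamma chain family on the panel 9 were tested, and 3 ligand genes, Il2, Il4 and Il21, lay below the minimum. Over all tested genes 33.5% were called higher in the nodes and 29.7% in the spleen. Receptors of the family and their ligands were higher in the nodes at 8 of the 9 tested genes and lower at none, with a median log2 difference of 0.60. Besides Il2ra, Il2rb and Il7r these included Il15, a survival cytokine for memory and natural killer cells, at 28.7, 44.8 and 41.6 scaled counts in the nodes and 24.0, 19.1 and 17.4 in the spleens (log2 difference 0.93 ± 0.24, adjusted p = 0.0043), and its receptor chain Il15ra (1.92-fold). Il2rg, the common chain itself, was 1.49-fold higher in the nodes and Il4ra, the interleukin 4 receptor, 1.49-fold. Their downstream kinases and inhibitors followed, with 9 of 15 genes of the JAK, STAT and SOCS group higher in the nodes and none lower. Jak1, a kinase of this receptor family, was 1.36-fold higher (adjusted p = 6.0e-04) and Socs3, a feedback inhibitor, 1.61-fold. The count for this group was 5 without ampicillin node 2 and 4 with spleen 1 as the lone spleen.

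Remaining groups were mixed, and their counts are read against the 33.5% of all tested genes called higher in the nodes and the 29.7% called higher in the spleen. For the NF-kB, lymphotoxin, TGF-beta and apoptosis lists the share called higher in the nodes was close to that background. Of 14 NF-kB genes 5 were higher in the nodes and 1, Chuk, in the spleen. The 5 were the kinase gene Ikbke (1.79-fold), the inhibitor genes Tnfaip3 (1.38-fold) and Nfkbia (1.29-fold), and the subunit genes Relb and Rela. The count of 5 was 3 without ampicillin spleen 3, node 2 or node 3, and 2 with spleen 1 as the lone spleen, and Chuk lost its call without spleen 3, node 1 or node 2. Nfkbia lost its call without spleen 2, spleen 3, node 2 or node 3, and Rela without spleen 3 or any 1 of the nodes, with TMM or median scaling, with DESeq2, with robust empirical Bayes, with the 6 samples fitted alone and with the replicate block. Of 13 lymphotoxin and BAFF genes 5 were higher in the nodes, Ccl19, Relb, Lta, the membrane lymphotoxin chain Ltb (log2 difference 0.41) and Tnf (0.79). The 4 higher in the spleen were Cxcl13, Tnfrsf13b, Tnfrsf14 and the B cell survival factor gene Tnfsf13b (BAFF, log2 difference -1.05). Against spleen 1 alone 2 of the 13 were called higher in the nodes. Tnfrsf14, the receptor for LIGHT and BTLA, measured 507, 1202 and 1142 scaled counts in the spleens and 480.2, 553 and 498 in the nodes (-0.89 ± 0.24, adjusted p = 0.0047). Spleen 1 lay among the nodes, and with it as the lone spleen the difference was 0.013 (adjusted p = 0.95). Of 9 integrin genes 6 were higher in the spleen, Itgb1, the shared beta 1 chain, by 1.43-fold, and 1, Itgal, in the nodes, a call lost with TMM scaling and when any 1 of ampicillin spleens 2 and 3, ampicillin nodes 1 and 2, control spleens 1 and 3 and control node 1 was left out. Of 10 genes of TGF-beta and interleukin 10, 3 were higher in the spleen, Tgfb1 (log2 difference -0.40), Il10ra (-0.52) and Smad3 (-0.48), and 3 in the nodes, Tgfb3 (0.84), Tgfbr2 (0.38) and Ski, which lost its call without spleen 2, spleen 3, node 1 or node 3. With spleen 1 as the lone spleen 5 of the 10 were called higher in the spleen and 0 in the nodes.

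Of 13 apoptosis genes 4, Tnfsf10, Cdkn1a, Fas and Casp8, were higher in the nodes and 2, Bid and Casp2, in the spleen. Casp8 lost its call without node 2. Tnfsf10, the death ligand TRAIL, measured 62.5, 67.5 and 59.8 scaled counts in the spleens and 234, 272 and 256 in the nodes (log2 difference 2.01 ± 0.12, adjusted p = 2.2e-08). Cdkn1a, the cell cycle inhibitor p21, was 2.60-fold higher in the nodes, Fas, the death receptor, 2.17-fold, and Bid, a link from death receptors to mitochondria, 1.61-fold higher in the spleen. The nodes were closely grouped and well above the spleens at Tnfsf10. Of 5 SLAM family genes 2 were higher in the nodes, Sh2d1a, the adaptor SAP, at 360.2, 358 and 364 against 149, 121 and 109 (1.51 ± 0.12, adjusted p = 3.6e-07), and Slamf7 (0.51), and Cd244 was higher in the spleen. Cd7, Cd80, Il1r2, Xcl1, Ccl6, Pdgfrb, Ahr, Chuk, Rela, Lta, Tnfrsf13b, Il18r1, Il18rap, Il1a, Ski and Casp2 were named to complete small counts, after their values had been seen.

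Calls of further genes named above were lost when spleens 2 and 3 were both left out, each with a smaller difference of the same sign. Against spleen 1 alone, Tap1 was at 0.34 on the log2 scale (adjusted p = 0.070), Il15 at 0.69 (0.11), Ltb at 0.16 (0.19) and Lta at 0.30 (0.064). Tnfaip3 was at 0.23 (0.19), Il18r1 at 0.29 (0.19), Tgfb3 at 0.42 (0.24), Tgfbr2 at 0.14 (0.21) and Tlr3 at 0.64 (0.16). Casp2, higher in the spleen, was at -0.30 (0.092). Ets1, Casp8, Chuk, Itgal, Nfkbia, Rela and Ski, whose calls also depended on single samples, lost theirs here too, with adjusted p between 0.10 for Casp8 and 0.85 for Nfkbia.

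**Figure D3:**
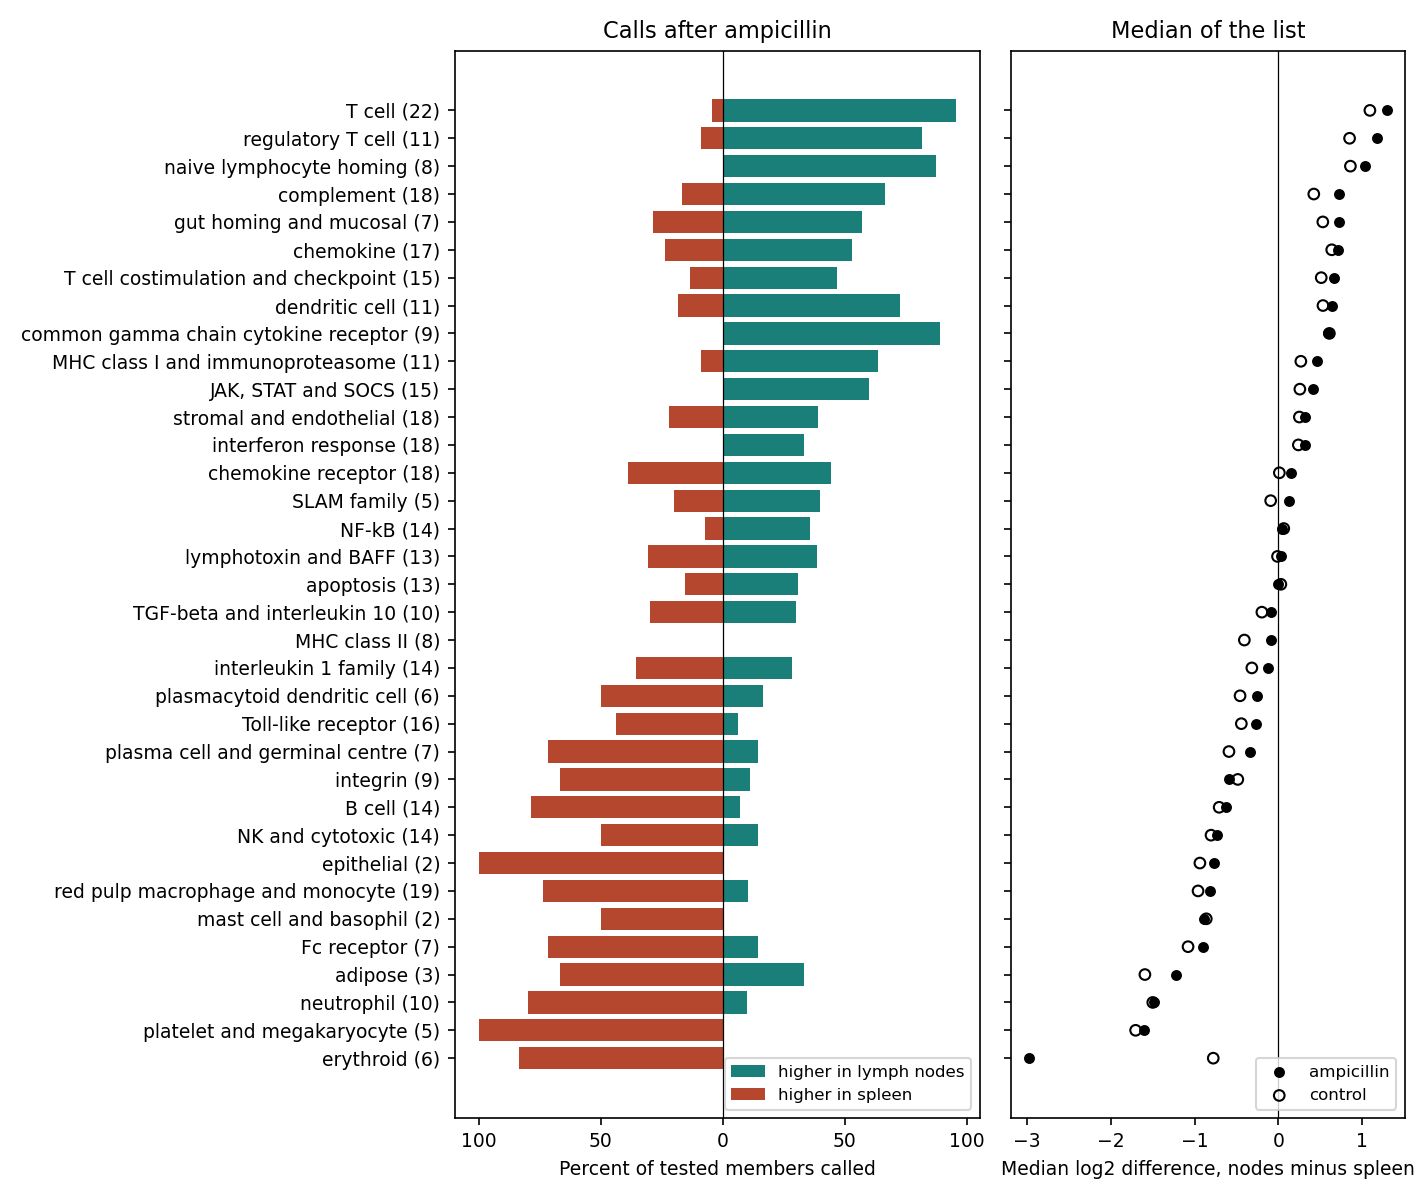
Left, percent of each list's tested genes called higher in the ampicillin lymph nodes (right bars) or higher in the ampicillin spleen (left bars), with the number tested in brackets. Right, the list's median log2 difference, nodes minus spleen, in ampicillin mice (filled) and control mice (open), with genes below 20 counts in an organ at their bound. The T cell list lies at the top and the erythroid list at the bottom. The erythroid list is the one whose 2 medians lie farthest apart, at -2.98 and -0.78.

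The last comparison asked whether the organs differed in the same way in untreated mice, which share no sample with the treated ones. In control mice 285 of 445 genes were called (64.0%), 132 higher in the nodes (29.7%) and 153 higher in the spleen (34.4%). The control organs did not overlap at 335 genes (75.3%), the nodes above at 157 (35.3%) and the spleen above at 178 (40.0%). Of the genes called higher in the nodes after ampicillin, 123 were also called higher there in control mice, 82.6% of the first list and 93.2% of the second. Of those called higher in the spleen, 120 were shared, 90.9% and 78.4%. No gene was called in opposite directions. Across the 445 genes the log2 differences of treated and control mice had a Pearson correlation of 0.958 and a Spearman correlation of 0.949, a description over genes that are not independent replicates.

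The test of the difference itself, treated minus control, called 0 genes with edgeR and 0 with DESeq2. In edgeR the smallest adjusted p was 0.31 and 49 genes (11.0%) had an unadjusted p under 0.05. The smallest unadjusted p values were those of Cd9 (0.0011), where the organ difference was -0.59 in treated and -1.07 in control mice, Sh2d1a (0.0019), at 1.51 and 0.85, and Casp1, the inflammasome protease (0.0023), at 0.08 and -0.36. Ms4a1, Ccrl2 and Ccbp2 followed, at -0.67 and -1.15, -1.81 and -0.37, and -1.06 and -1.98. None of these 6 passed. At Ccrl2 the treated spleens measured 65.1, 168 and 131 scaled counts and the control spleens 42.9, 49.1 and 41.9, with nodes at 35.2, 26.5 and 41.6 and 37.1, 34.0 and 32.5.

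**Figure D4:**
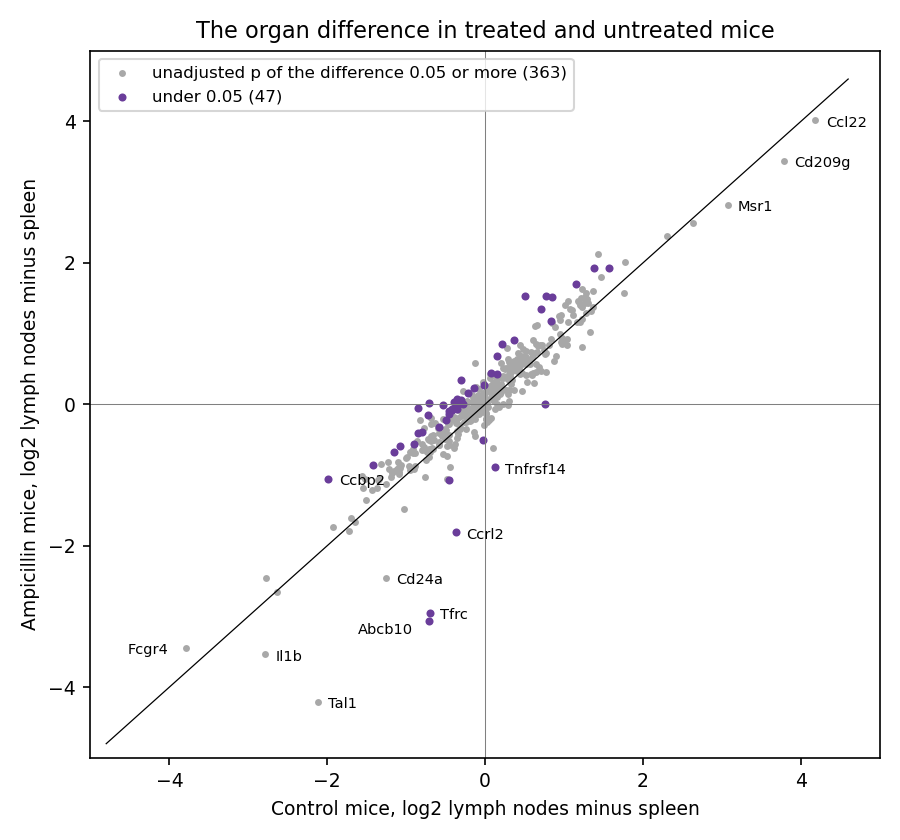
Log2 difference of nodes minus spleen in control mice (horizontal) and ampicillin mice (vertical) for the 410 genes whose mean reached 20 scaled counts in all 4 groups, with the diagonal of equal difference. The 47 purple genes had an unadjusted p under 0.05 for the difference between treated and control mice, and none passed after adjustment. Most genes lie along the diagonal, and Tfrc, Abcb10, Tal1, Ccrl2 and Tnfrsf14 lie below it.

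Whether this test called genes depended on the ampicillin spleens. Without spleen 1, 59 genes (13.3%) were called, 49 with a difference above 0 (11.0%) and 10 below (2.25%). They included 10 of 22 T cell genes and 6 of 8 class II genes, whose difference was above 0, and 5 of 6 erythroid genes, whose difference was below 0. With spleen 1 as the lone ampicillin spleen only Il1b was called. Tfrc measured 774, 1102 and 544 scaled counts in the control spleens and 498, 500.3 and 495 in the control nodes, so that treated spleens 2 and 3 were above every control spleen and treated spleen 1 was within their range. Its organ difference was -2.95 in treated and -0.70 in control mice (control adjusted p = 0.25), and the test of the difference gave an unadjusted p of 0.0085. The class II gene H2-Aa measured 40709, 38641 and 36877 in the control spleens and 30149, 28493 and 26074 in the control nodes, an organ difference of -0.46 (adjusted p = 0.0015), and 7 of 8 class II genes were called higher in the spleen of control mice against none after ampicillin. For 6 of the 8 the unadjusted p of the difference was under 0.05, and none passed. For T cell genes the median log2 difference was 1.30 in treated and 1.09 in control mice, and 20 of 22 were called higher in the control nodes. Over all tested genes the median of the treated minus control difference was 0.13, and the part of a panel-wide shift in these gaps was not tested. With TMM scaling the T cell medians were 1.25 and 1.15. That scaling called 4 class II genes higher in the treated spleen and 7 in the control spleen.

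**Figure D5:**
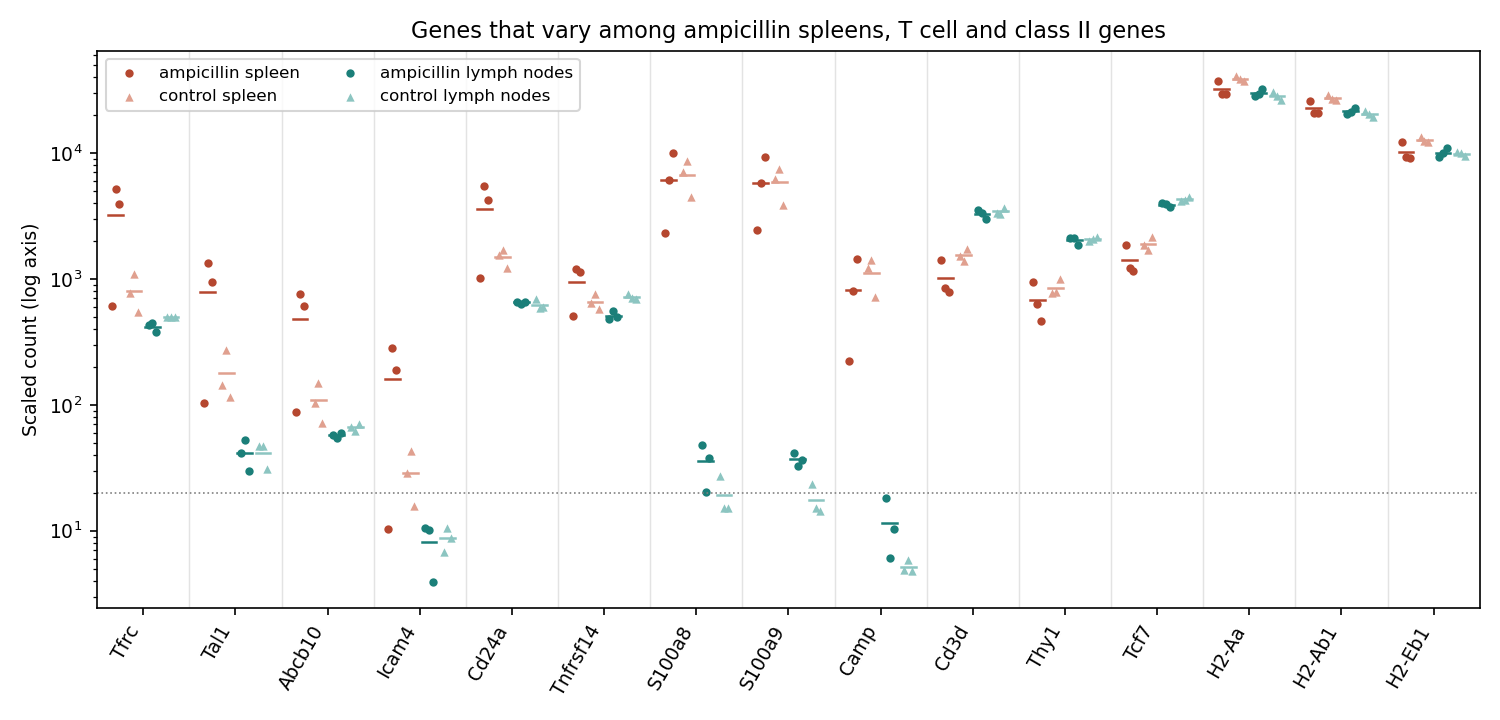
Scaled count (log axis) in all 12 samples of 6 erythroid and linked genes, 3 neutrophil genes, 3 T cell genes and 3 class II genes, 1 symbol per sample (circles ampicillin, triangles control) and a bar at the mean of 3, with a dotted line at 20. Ampicillin spleens 2 and 3 lie above all control spleens at Tfrc, Abcb10, Tal1, Icam4, Cd24a and Tnfrsf14, and ampicillin spleen 1 lies below all control spleens at Tal1, Icam4, Cd24a, Tnfrsf14, S100a8, S100a9 and Camp.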

How the data were processed

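Gene counts of 12 mouse organ samples were used as deposited by the authors. Per the labels, RNA was hybridised to the NanoString Mouse Immunology panel. The design text calls the values normalized, but they are whole numbers with totals from 396950 to 738489, and they were treated as raw counts. The deposited control-probe table has 12 columns whose names match no sample, and it was not used.

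Each sample was scaled by the geometric mean of 14 housekeeping genes, known as such from the panel. Of the other 547 genes, 445 had a mean of at least 20 scaled counts over the 12 samples and were tested, and 102 were left out. edgeR 4.0.16 in R 4.3.3 fitted 4 group means with the quasi-likelihood test (8 degrees of freedom for the residual spread), with p-values adjusted by Benjamini-Hochberg across all 445 genes, with a threshold of 0.05. Contrasts were nodes minus spleen in ampicillin mice, the same in control mice, and the difference of the 2. The fit was tested on simulated data with known changes. Alternatives used limma 3.58.1 and DESeq2 1.42.0, other scalings and minimums, and left-out samples.

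The genes named are the 14 called with the largest difference each way, in each list the 4 with the largest difference and the 4 with the highest level, all members of the erythroid, adipose, epithelial, mast cell and platelet lists, and the 6 with the smallest p for treated against control. Some of these are given only in counts or are not reported here, and any others are said to be chosen after their values were seen. The members and lists were chosen with earlier results of these data known. Lists share genes, and none was tested as a set. Probes of near-identical families (Fcgr, Klra, Cd209, H2) may bind relatives, so their values are uncertain. Nothing in the labels ties samples to shared cages or days. The p-values use a spread between mice of a group that is pooled over the 4 groups, and the ampicillin spleens spread more widely than the others. Promoter sequences are from RefSeq, build GRCm38.p6.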

Additional observations from a re-analysis of the deposited data

How the results depend on the processing

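The count of 281 called genes was 292 with TMM scaling, 289 with scaling to the median gene, 280 and 286 with DESeq2 on housekeeping and on its own size factors, 282 with limma and 262 when the 6 ampicillin samples were fitted alone. With no minimum it was 298 and with a minimum of 50 it was 253. The methods' t-test, with a fold over 1.25, called 217 genes at an unadjusted threshold of 0.05, 112 higher in the nodes and 105 in the spleen. It called 125 genes after Benjamini-Hochberg adjustment, 58 higher in the nodes and 67 in the spleen, and the cause of the lower count was not tested. Leaving out 1 of the 12 samples gave 267 to 298 called genes, 135 to 167 higher in the nodes and 125 to 137 in the spleen. In control mice these ranges were 266 to 305, 121 to 138 and 139 to 167. With ampicillin spleens 2 and 3 both left out, 244 genes were called, 109 higher in the nodes and 135 in the spleen. The test of treated against control organ differences called between 0 and 59 genes when 1 sample was left out, 59 without ampicillin spleen 1, and 1 without spleens 2 and 3, and the cause was not tested.

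With the replicate number as a block, 276 genes were called, 146 higher in the nodes and 130 in the spleen. Deviations of same-numbered ampicillin nodes and spleens correlated at -0.14, 0.03 and 0.01, and the numbers mark different mice, so they share only a number.

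Of 169 called genes named here, 144 passed under every alternative in which they were tested, the methods' t-test apart. A further 24 lost the call under at least 1, and 1 changed direction. That gene was Tnfrsf14, at 0.013 without spleens 2 and 3. A gene below the minimum in an alternative was not tested there, as Icam4 was not with spleen 1 as the lone spleen. Among genes not called, H2-Aa was at 0.025 without spleen 1 and at -0.15 without spleen 3, the ends of its range when 1 ampicillin sample was left out. Kit ranged likewise from -0.16 without node 3 to 0.028 without node 1, with 0.027 without spleen 1. The median difference of all tested genes moved from 0.03 to -0.03 with TMM scaling. That scaling raised the genes called higher in the spleen from 0 to 4 in the class II list, from 1 to 2 in the NF-kB list and from 3 to 5 in the TGF-beta list. Groups of 3 samples and a spleen group with the wider spread limit the precision, and genes near 20 scaled counts rest on few counted molecules.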

Other observations

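Of 128 tested genes that belonged to none of the lists, 62 were called (48.4%), 25 higher in the nodes and 37 in the spleen. Those named here were chosen after their values were seen. Clec4a4, a C-type lectin receptor of the DCIR family, measured 94.2, 80.2 and 101 scaled counts in the ampicillin spleens and 18.3, 23.4 and 35.1 in the nodes (log2 difference -1.85 ± 0.28, edgeR adjusted p = 7.0e-05). Emr1, the macrophage marker F4/80, measured 686, 796 and 535 and 287, 417 and 362 (-0.91 ± 0.15, adjusted p = 1.6e-04). Every spleen lay above every node at both. Hfe, a regulator of iron uptake that binds the transferrin receptor, was also higher in the spleen (-0.97), as were Plaur, the urokinase receptor (-1.03), Syk, a kinase downstream of Fc and B cell receptors (-0.86), and Cd44, the hyaluronan receptor (-0.57).

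Il27ra, the interleukin 27 receptor chain, measured 615, 406 and 424 scaled counts in the spleens and 973, 1027 and 897 in the nodes (log2 difference 1.00 ± 0.13, adjusted p = 2.3e-05), with all nodes above all spleens. Cd69, an early activation marker that also retains lymphocytes in tissue, was higher in the nodes by 0.93 on the log2 scale and Runx3, a transcription factor of CD8 T cells, by 0.90. Batf, a transcription factor of helper T cells, differed by 0.91 after ampicillin (adjusted p = 4.0e-04) and by 0.37 in control mice (adjusted p = 0.066), and the difference between the 2 had an unadjusted p of 0.041. Aire, the transcription factor known from the thymus, measured 10.3, 8.91 and 14.1 in the spleens and 24.8, 33.6 and 50.7 in the nodes, at least 1.82-fold higher in the nodes (adjusted p = 5.5e-04).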
